A study of Mus musculus with 2 samples.

Results

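The core circadian clock genes are 10 genes of the deposited count table, taken by name from its 44792 rows, and all 10 had a row. The positive arm held Arntl, Clock and Npas2. The repressor arm held Per1, Per2, Per3, Cry1, Cry2, Nr1d1 and Nr1d2. The members were chosen by earlier ratios of the same 2 libraries, so the ratios below are descriptions and carry no test. RNA sequencing used OCCM-30, an immortalized cementoblast-like mouse line. It compared a culture put under compressive force with a control culture, with 1 library in each group. Both cultures carried the same genotype and grew in the same serum-containing medium. The line stands for the cementoblast, which lays mineralized cementum on the tooth root. No source used here gives the size or duration of the force or the hours of harvest, and with 1 library in each group, harvest hour, treatment and culture cannot be told apart. In bulk RNA, fewer cells of a type and less RNA per cell cannot be told apart either.

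The circadian clock is a feedback loop of transcription that runs inside single cells, fibroblasts and bone-forming cells in culture included. The proteins CLOCK or NPAS2 pair with BMAL1, the product of Arntl, and bind E-box sequences near the Per, Cry and Nr1d genes. PER and CRY proteins then inhibit that pair, while the REV-ERB nuclear receptors, encoded by Nr1d1 and Nr1d2, repress Arntl and other genes through ROR elements. Transcripts of the Per and Nr1d genes therefore rise and fall at other hours than Arntl, and a change of serum or medium can reset the phase.

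The DNA just before an annotated transcript start of 4 repressor genes is shown here. They were picked because Nr1d1, Per1 and Per3 held the highest ratios of the arm while Cry1, with an E-box of its own, held the lowest. Each run gives 250 bases upstream of an annotated transcript start, on the strand of the gene, from RefSeq on GRCm38.p6. Capitals mark matches to the motifs searched. These are the Nr1d1 window at chr11:98775378-98775627 (minus strand), the first of 2 Per1 windows at chr11:69098699-69098948 (plus strand), the second having no match, the Per3 window at chr4:151044666-151044915 (minus strand) and the Cry1 window at chr10:85185055-85185304 (minus strand). The Per1 window lies inside the annotated span of Per1 (69095108 to 69109965), and the Per3 window reaches into that of Per3 (150997018 to 151044707).
Nr1d1: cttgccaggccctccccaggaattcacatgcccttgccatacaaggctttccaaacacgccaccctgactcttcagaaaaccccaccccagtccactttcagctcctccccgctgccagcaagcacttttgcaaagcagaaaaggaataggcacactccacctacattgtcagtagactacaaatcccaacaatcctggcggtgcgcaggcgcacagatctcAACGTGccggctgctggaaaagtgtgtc
Per1: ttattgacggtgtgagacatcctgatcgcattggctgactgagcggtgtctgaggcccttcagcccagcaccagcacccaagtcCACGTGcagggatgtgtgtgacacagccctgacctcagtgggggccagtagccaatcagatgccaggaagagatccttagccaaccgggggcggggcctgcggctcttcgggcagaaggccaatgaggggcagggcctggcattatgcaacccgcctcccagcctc
Per3: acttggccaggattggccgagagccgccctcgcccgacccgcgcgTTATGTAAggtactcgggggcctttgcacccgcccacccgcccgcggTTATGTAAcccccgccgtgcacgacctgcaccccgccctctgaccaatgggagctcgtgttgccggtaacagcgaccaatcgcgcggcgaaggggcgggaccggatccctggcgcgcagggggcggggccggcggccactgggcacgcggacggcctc
Cry1: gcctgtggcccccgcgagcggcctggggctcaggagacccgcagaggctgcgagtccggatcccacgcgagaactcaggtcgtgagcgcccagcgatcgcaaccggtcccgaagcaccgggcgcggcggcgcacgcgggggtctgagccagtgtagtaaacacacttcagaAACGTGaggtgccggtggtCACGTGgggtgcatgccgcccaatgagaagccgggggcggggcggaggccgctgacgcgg

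The motifs were searched on both strands. They were the E-box CACGTG and its variant CACGTT, called the E-prime box here, the D-box as TTATGTAA or TTACGTAA, the ROR element as TAGGTCA or TGGGTCA, the cAMP response element TGACGTCA and the hypoxia response core ACGTG. The core ACGTG lies inside every E-box and reads on the opposite strand of every E-prime box. RefSeq windows matched 9 of the 10 members, with 13 windows in all, some of which overlap, as the Arntl pair and a pair of Clock windows do. The E-box was found in an upstream window of Per1, at bases -166 to -161 from the start, and in that of Cry1, at -60 to -55. Of all 32851 windows, 6.02% held it. The E-prime box was found upstream of Nr1d1 (-28 to -23), Cry1 (-79 to -74) and Cry2 (-166 to -161), and in 3.85% of all windows. The 2 D-boxes of Per3, a sequence bound by DBP, TEF, HLF and NFIL3, began at -205 and -158, and 0.819% of all windows held that motif. The other D-box form (0.113% of all windows), the forms of the ROR element (2.23% and 3.24%) and the cAMP response element (1.55%) had no match in these upstream windows. A ROR element, TAGGTCA, lay past the start of the second Arntl window, at bases 30 to 36 downstream. Apart from the matches inside E-boxes and E-prime boxes, the hypoxia core was found in the Npas2 window, and 16.6% of all windows held it. Median GC content was 64% in the member windows against 52.4% in all windows. A match is a match of letters, not a measured binding site.

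**Figure D1:**
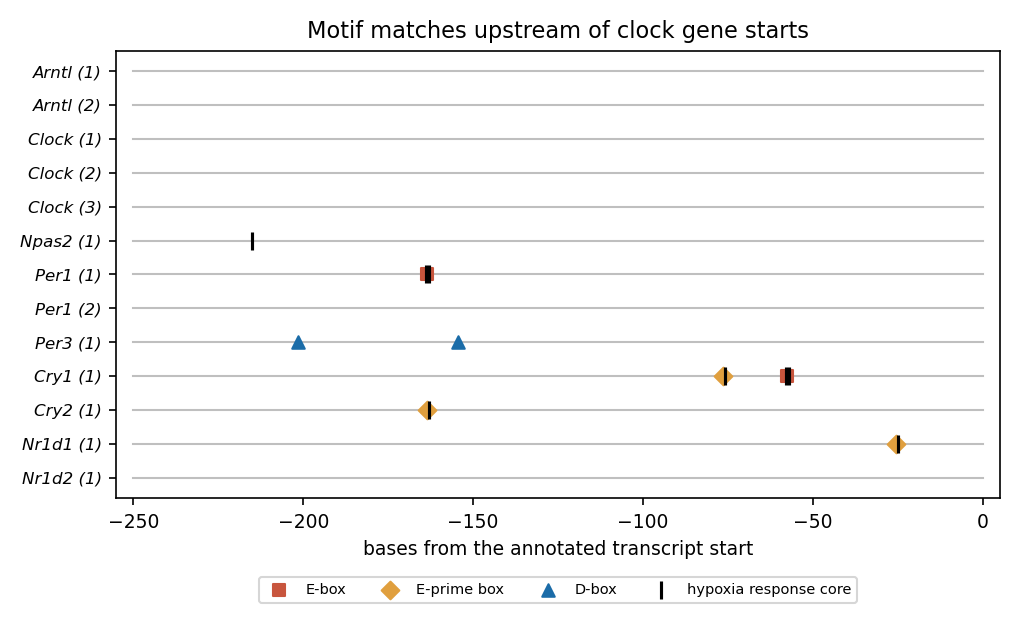
Positions of motif matches in the 250 bases upstream of 13 annotated starts of 9 clock genes (x axis, bases from the start; y axis, gene with the number of its window). E-boxes are seen for Per1 and Cry1, E-prime boxes for Nr1d1, Cry1 and Cry2, and D-boxes for Per3, while no window of Arntl, Clock or Nr1d2 shows a match.

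The compressed library held 24296292 counts and the control library 25049919. Levels are in CPM, counts scaled to a common library size by trimmed mean of M-values. Ratios are of the compressed over the control library, with a prior count of 0.5, and each has an exact 95% interval for counting error only. To be called, a gene needed 1 CPM or more in some library, a 2-fold ratio in either direction (2 and above, or 0.5 and below) and an interval that left out 1. Of the 8 markers of the labelled cell type, 5 passed the CPM minimum. The collagen gene Col1a1 stood at 7758 CPM under compression and 7535 CPM in the control, Spp1 at 196 and 178, Runx2 at 182 and 231, Alpl at 35.4 and 32.6 and Sp7 at 4.08 and 3.91 CPM. The other 3 did not pass it, with Bglap at 0.494 and 0.439 CPM, Dmp1 at 0.988 and 0.559 CPM and the bone sialoprotein gene Ibsp listed at 0 in both. A listed 0 cannot be read as absence in this table, since Rps2, Eif4e and Ndufs7, genes that every cell uses, were listed at 0 in both libraries too. The macrophage and blood cell markers (5 genes) summed to 7.99 CPM under compression and 7.50 CPM in the control, mostly Cd68 (6.18 and 5.71) and Csf1r (1.61 and 1.76), the 4 epithelial markers to 0.824 and 0.918 CPM, and the 4 endothelial markers to 0.865 and 1.36 CPM, of which Pecam1 gave 0.865 and 1.28. Ptprc, Adgre1, Krt5, Epcam, Kdr and Tek were listed at 0 in both.

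Transcripts of the repressor arm were on the whole more abundant in the compressed library, while those of the positive arm were level or slightly less abundant. Nr1d1 had the highest ratio, 3.44, followed by Per1 at 2.33 and Per3 at 1.92. Cry1 stood apart from its arm with a ratio of 0.826. Of the 10 members 2 were called higher, Nr1d1 and Per1, and 0 were called lower, beside higher calls for 3.06% and lower calls for 0.929% of the 14001 genes that passed the CPM minimum. At a fold limit of 1.5, Per3 joined them, with 7.31% of all genes called higher and 3.71% lower at that limit. Since the members were chosen on this contrast, nothing is read from these counts.

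**Figure D2:**
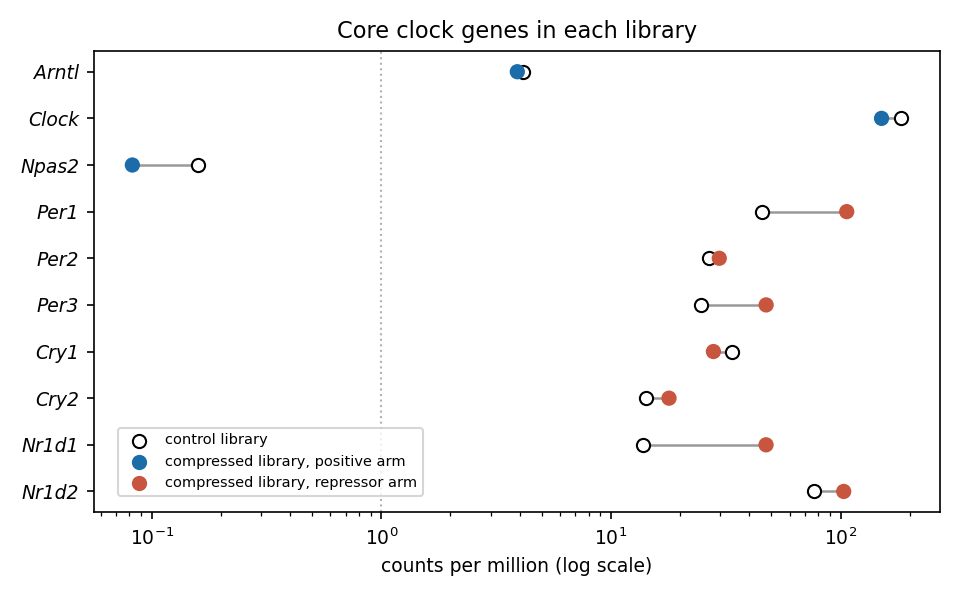
CPM of each clock gene (log scale) in the control library (open circles) and in the compressed library (filled, blue for the positive and red for the repressor arm), 1 library each. The widest gaps among genes above 1 CPM (dotted line) are those of Nr1d1, from 13.8 to 47.4 CPM, and Per1, from 45.6 to 106 CPM.

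In the positive arm no transcript was more abundant under compression. Clock, which encodes the DNA-binding partner of BMAL1, had 3665 counts under compression and 4611 in the control, or 151 against 184 CPM. It was 1.22 times lower (1.17 to 1.27), a difference beyond counting error but far inside the fold limit. Arntl had 95 counts against 104, or 3.91 against 4.15 CPM. At a ratio of 0.943 (0.706 to 1.26), a difference was not detectable at this depth, while changes of 1.5-fold either way lie outside the interval. Npas2, a paralog of Clock, had 2 counts against 4, too few to pass the CPM minimum, with a ratio of 0.573 (0.0467 to 3.60). The 2 libraries therefore say nothing of Npas2.

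Counts of different genes depend on transcript length, which the sources used here do not give, so the members are not ranked by level. Within each library, the balance between Clock and Arntl was 38.6 Clock counts per Arntl count under compression and 44.3 in the control. The ratio of these values was 0.870 (0.650 to 1.17), so the partners did not shift against each other beyond counting error. The span of Clock on chromosome 5 (76209868 to 76305603) holds the pseudogene Ube2n-ps1, with 159 counts in each library, and the noncoding Gm7467, with 9 counts against 20. Both are small beside the counts of Clock.

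The REV-ERB genes were both higher in the compressed library, by unequal amounts. Nr1d1, encoding REV-ERB alpha, had 1151 counts against 345, or 47.4 against 13.8 CPM. Its ratio of 3.44 (3.05 to 3.89) was the 89th highest of the 14001 genes. Nr1d2, encoding REV-ERB beta, had 2508 counts against 1913, or 103 against 76.3 CPM, and a ratio of 1.35 (1.27 to 1.44). The number of Nr1d1 counts per Nr1d2 count went from 0.180 in the control to 0.459 in the compressed library, a 2.54-fold difference (2.22 to 2.92) that needs no library scaling. The paralogs with shared binding sites thus differed in ratio by more than counting error.

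The value of Nr1d1 has a limit of its own. Nr1d1 lies on chromosome 11 at 98767932 to 98775377, and its last 1075 bases overlap Thra (98740776 to 98769006), the thyroid hormone receptor alpha gene, which is transcribed from the opposite strand. The strand setting of the counting is not given, so reads of the overlap cannot be assigned with certainty. Thra itself had 2235 counts against 1367, a ratio of 1.69 (1.58 to 1.81). Nr1d1 counts per Thra count were 0.515 under compression and 0.252 in the control, a 2.04-fold difference (1.77 to 2.35). The part of Thra reads in the Nr1d1 value was not tested.

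The 3 Period genes, whose proteins carry the CRY proteins into the nucleus and inhibit CLOCK and BMAL1, separated from each other. Per1 had 2585 counts against 1143, or 106 against 45.6 CPM, a ratio of 2.33 (2.18 to 2.50) and the 265th highest of all genes above the minimum. Per3 had 1152 counts against 619, or 47.4 against 24.7 CPM. Its ratio of 1.92 (1.74 to 2.12) lay just inside the fold limit, and the interval crossed that limit, so Per3 can be placed on neither side of it. Per2 had 720 counts against 667, or 29.6 against 26.6 CPM. The ratio of Per2, 1.11 (1.001 to 1.24), touched no change, and with DESeq2 size factors its interval of 0.993 to 1.23 included 1.

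Ratios between the Period genes inside a library give the size of these gaps without scaling. Their order is fixed by the ratios above, since scaling is common to all genes of a library. There were 3.59 Per1 counts per Per2 count under compression and 1.71 in the control, a 2.10-fold difference (1.84 to 2.38). Per3 per Per2 went from 0.928 to 1.6, a 1.72-fold difference (1.49 to 1.996). Per1 and Per3 lay closer, with 2.24 Per1 counts per Per3 count against 1.85 and a 1.22-fold difference (1.08 to 1.37). Per1 also answers directly to cAMP and glucocorticoid signals in many cells, whereas Per3 is the member least needed for the rhythm.

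**Figure D3:**
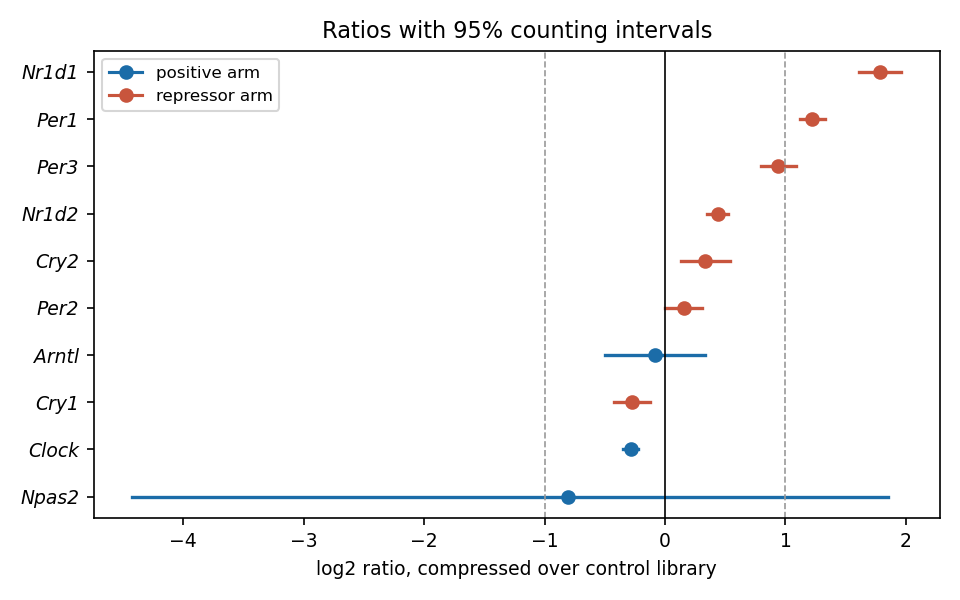
Log2 ratio of the compressed over the control library for each clock gene, with 95% counting intervals (lines); dashed lines mark a 2-fold difference. Nr1d1 and Per1 lie wholly beyond 2-fold, the interval of Per3 crosses it, and Cry1 sits beside Clock on the other side of 0.

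The 2 Cryptochrome genes, which encode the strongest inhibitors of the CLOCK and BMAL1 pair, went in opposite directions. Cry1 had 679 counts against 848, or 28.0 against 33.8 CPM, and was 1.21 times lower (1.09 to 1.34). Cry2 had 435 counts against 356, or 17.9 against 14.2 CPM, a ratio of 1.26 (1.09 to 1.45). The 2 intervals did not meet. Cry2 counts per Cry1 count went from 0.420 in the control to 0.641 under compression, a 1.53-fold difference (1.28 to 1.82). In many tissues Cry1 transcripts peak later than those of Per1 and Nr1d1, since ROR elements act on Cry1 besides its E-boxes. Against Clock, the Cry1 level did not shift: there were 0.185 Cry1 counts per Clock count under compression and 0.184 in the control, a ratio of 1.01 (0.901 to 1.13).

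The arms were then set against each other. The median log2 ratio was -0.29 over the 3 positive members, where Clock was the middle gene, and 0.44 over the 7 repressors, where Nr1d2 was the middle gene, beside -0.01 over all genes above the CPM minimum. The positive minus the repressor median was -0.72, and -0.47 without Clock, Npas2 and Nr1d1, whose spans overlap another counted gene. Clock was the middle positive gene only with Npas2 counted, and with Clock and Arntl alone the positive median was -0.19 and the difference -0.62. Summed over the arm, the repressors stood at 380 CPM under compression and 235 CPM in the control, and the positive genes at 155 and 188 CPM. Per1 held 42.0% of the net difference of the repressors, Nr1d1 23.2%, Nr1d2 18.6% and Per3 15.7%. Sums over genes and such shares depend on transcript length, so the shares do not rank the genes. The repressor arm held 2.45 counts per positive-arm count under compression and 1.25 in the control, a 1.97-fold difference (1.86 to 2.08). The difference was 1.83-fold (1.73 to 1.93) without Nr1d1, 1.76-fold (1.66 to 1.86) without Per1 and 1.57-fold (1.48 to 1.66) without both. The members were chosen on this contrast, so a difference that stays after genes are dropped is no support for it. These intervals cover the counting error of pooled reads only. Clock gave nearly all positive-arm counts, and with Arntl and Npas2 alone as the positive arm the difference was 1.74-fold (1.31 to 2.32).

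Each repressor was also set against each of the 2 countable positive genes inside the library. Against Clock, all 7 repressors had a ratio above 1, 6 of them with intervals above 1 and Cry1 with an interval that held 1. Clock itself was lower under compression, and 83.4% of all genes above the CPM minimum had a higher ratio than Clock. Nothing is therefore read from the number of pairs above 1. Nr1d1 per Clock differed 4.197-fold (3.69 to 4.78), Per1 per Clock 2.85-fold (2.62 to 3.09) and Per3 per Clock 2.34-fold (2.10 to 2.61). Against Arntl, whose low counts widen the intervals, 6 of 7 had a ratio above 1. The intervals of 4 lay above 1, namely Nr1d1, Per1, Per3 and Nr1d2. Of all genes above the CPM minimum, 60.3% had a higher ratio than Arntl. The share of all genes with an interval above 1 against Clock or Arntl was not computed. Nothing is therefore read from the counts of intervals either. Nr1d1 per Arntl went from 3.32 to 12.1 counts, a 3.65-fold difference (2.66 to 5.002). Cry1 per Arntl, at 0.877 (0.645 to 1.19), was the exception in direction.

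**Figure D4:**
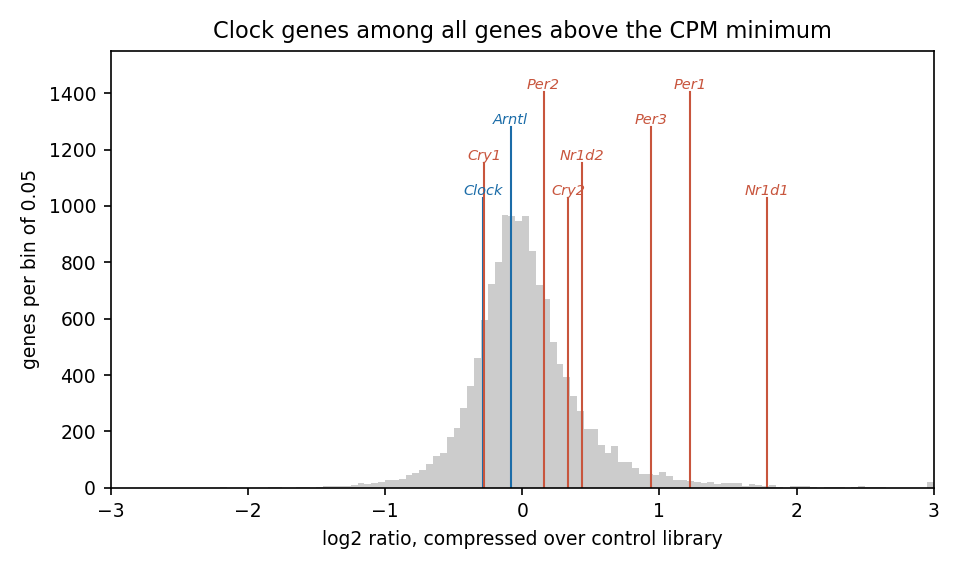
Log2 ratios of all 14001 genes above the CPM minimum (grey, genes per bin of 0.05, values beyond 3 drawn in the end bins) with lines at the 9 clock genes above the minimum. Nr1d1, Per1 and Per3 lie in the right tail, and Arntl and Per2 lie near the centre. Clock and Cry1 lie left of the centre, with 16.6% and 17.5% of genes below them.

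Counting intervals above 1 were held by 6 of the 10 members and intervals below 1 by 2, Clock and Cry1. At this depth such intervals were common, with 26.3% of all genes above 1 and 28.6% below 1, and the choice of members on the contrast bars any reading of the count. Per1 had 1.89% of all genes above it in ratio, Per3 3.44%, Nr1d2 12.3%, Cry2 17.1% and Per2 30.1%. Clock had 16.6% of all genes below it in ratio and Cry1 17.5%.

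Among transcription factors of the other clock loops and outputs, the repressors of E-box genes held the highest ratios. Of 11 genes 8 passed the CPM minimum, with 3 called higher and 0 lower, 6 intervals above 1 and 1 below, and a median log2 ratio of 0.75. Over all genes tested, 3.06% were called higher and 0.929% lower, and 26.3% of intervals lay above 1 and 28.6% below. The DEC repressors Bhlhe40 and Bhlhe41, which compete for E-boxes, were 3.69-fold (3.45 to 3.96) and 2.57-fold (2.31 to 2.86) higher. Ciart, counted under its older symbol Gm129 and encoding a repressor of CLOCK and BMAL1, had 889 counts against 443, a ratio of 2.07 (1.85 to 2.33). Dbp, the output factor that binds D-boxes and is a direct E-box target, had 493 counts against 257 and a ratio of 1.98 (1.70 to 2.31), just inside the fold limit. Nfil3, which represses at D-boxes, had a ratio of 1.43 (1.31 to 1.57). Arntl2, a paralog of Arntl, had 289 counts in each library.

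Rorb, a nuclear receptor that activates through ROR elements, was the lowest gene of that list at 0.740 (0.653 to 0.838), with 439 counts against 612. The related gene Rora was listed at 0 in both libraries, which, as for Ibsp, cannot be read as absence. Tef had 16 counts against 15 and Hlf 4 against 0, both below the CPM minimum.

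Genes that set the stability of clock proteins had ratios on both sides of 1. Of 15 kinases, ubiquitin ligases and other modifiers, 14 lay above the minimum, with 4 intervals above 1, 4 below and 6 that held 1, and a median log2 ratio of 0.00. Of these 1 was called higher and 0 lower, beside 3.06% and 0.929% of all genes. The gene called was Usp2, a deubiquitinase that is itself under clock control, with 105 counts against 40 and a ratio of 2.69 (1.87 to 4.003). Casein kinase 1 delta (Csnk1d), which marks PER proteins for decay, had a ratio of 0.884 (0.851 to 0.918) and casein kinase 1 epsilon (Csnk1e) of 1.204 (1.12 to 1.30). Sirt1, a deacetylase that acts on BMAL1 and PER2, was the lowest at 0.755 (0.696 to 0.818).

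Among clock-controlled output genes, 6 had a row above the minimum, with 4 intervals above 1, 2 below and a median log2 ratio of 0.28, beside 26.3% and 28.6% of intervals over all genes. Of these 6, 1 was called higher and 0 lower, beside 3.06% and 0.929% of all genes. Nampt, the rate-limiting enzyme of NAD salvage and an E-box target, had 155 counts against 68 and a ratio of 2.34 (1.76 to 3.18). Wee1, a kinase that holds back mitosis, had a ratio of 1.12 (1.05 to 1.198). Nocturnin, an enzyme with a rhythmic transcript, was counted under its older symbol Ccrn4l and was the lowest at 0.817 (0.763 to 0.875).

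Targets of the signals that reset clocks included 9 of 11 genes above the minimum, with 7 intervals above 1, 1 below and a median log2 ratio of 0.46, beside 26.3% and 28.6% of intervals over all genes. Of these 9, 1 was called higher and 0 lower, beside 3.06% and 0.929% of all genes. Nr4a1, an immediate early nuclear receptor, had 253 counts against 126 and a ratio of 2.07 (1.67 to 2.59). Egr1, also an immediate early gene, had 241 against 127, a ratio of 1.95 (1.57 to 2.45). The cAMP-responsive genes Crem and Sik1 had ratios of 1.32 (1.07 to 1.65) and 1.38 (1.27 to 1.49). The glucocorticoid-responsive genes differed: Fkbp5 had a ratio of 0.965 (0.907 to 1.03) and Klf9 of 1.405 (1.22 to 1.63), while Sgk1 was listed at 0 in both libraries. Srf was the lowest at 0.884 (0.814 to 0.959).

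**Figure D5:**
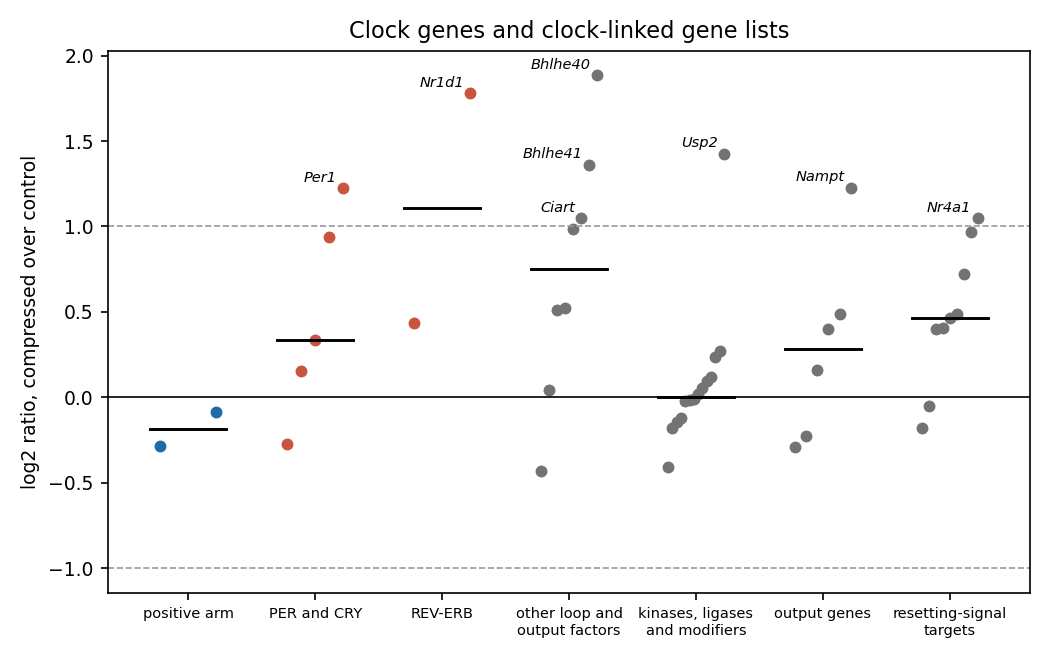
Log2 ratios of the clock genes and of 4 clock-linked lists, 1 point for each gene above the CPM minimum, with the list median over those genes (black line); genes called higher are named and dashed lines mark 2-fold. The kinases, ligases and modifiers lie on both sides of 0, with Usp2 apart, and the other loop and output factors have a median of 0.75.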

How the data were processed

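Whole-number read counts per gene were deposited by the authors for 1 compressed and 1 control library, with no normalization. The submitters' processing notes name HISAT2 and the build GRCm38, while the counting tool, the annotation, the strand setting and the handling of multiply aligned reads were not given in the sources used here. Reads are not independent molecules, and no interval covers the spread between cultures.

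From the deposited counts, trimmed mean of M-values factors over all rows came from edgeR 4.0.16 in R 4.3.3, and intervals were exact conditional binomial (Clopper-Pearson) from scipy 1.17.1. Ratios between genes inside a library have exact conditional odds ratio intervals. The calling rule was tested on simulated data that held counting error only, so that test says nothing of the spread between cultures. No p-value was computed, since each group has 1 library. The members and lists were chosen with earlier results of these data known. From each list the text names each gene called and the highest and lowest ratio above the CPM minimum, and any other gene was picked after its values were seen. Some list members are not reported here. Genes of like pattern were not ranked, as 2 libraries allow no such ranking. Older symbols, positions and promoter windows came from RefSeq tables of GRCm38.p6. Strand was checked on 1272 overlapping windows of opposite strands, all of them reverse complements. Alternatives were total-count scaling, DESeq2 1.42.0 size factors, upper-quartile factors, a loess fit, a prior count of 5, no CPM minimum or 5, a fold limit of 1.5, and intervals widened for an assumed coefficient of variation.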

Additional observations from a re-analysis of the deposited data

How the results depend on the processing

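The 4 other scalings kept the sign of each member's log2 ratio, as did a prior count of 5, and each value stayed inside its counting interval. Log2 ratios ran from 1.77 to 1.80 for Nr1d1, from 1.21 to 1.26 for Per1 and from 0.93 to 0.96 for Per3, and the widest range, -1.12 to -0.32, was that of Npas2. The number of members with an interval above 1 was 5 rather than 6 with DESeq2 size factors, where Per2 dropped out. Nr1d1 and Per1 were called higher under each scaling, CPM minimum and fold limit run. Over all genes, the scalings gave from 358 (loess fit) to 439 (upper-quartile factors) higher calls. With intervals widened for an assumed coefficient of variation of 0.2 between cultures, chosen after seeing the data, both were still called, and 3 members, Nr1d1, Per1 and Per3, kept an interval above 1, while those of Clock and Cry1 included 1. The true spread between cultures was not measured.

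Counts over all genes moved more. With no CPM minimum they were 774 higher and 369 lower, with a CPM minimum of 5 they were 154 and 12, and with a fold limit of 1.5 they were 1023 and 519. The number of genes that pass changes with the CPM minimum, so these counts are not shares. Library scaling cancels in the difference of medians, which was -0.47 without the members whose span overlaps a counted gene (Clock, Npas2 and Nr1d1), where Arntl alone stands for the positive arm, and -0.67 without Nr1d1 alone and -0.62 without Npas2 alone, both chosen after seeing the data. No replicate could be left out, since each group has 1 library.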
